A study of Mus musculus with 21 samples.

Results

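The ADAM and ADAMTS proteases described here are 10 genes, Adam8, Adam9, Adam10, Adam12, Adam15, Adam17, Adam19, Adamts1, Adamts4 and Adamts5. They were taken by gene symbol from the deposited count and TPM tables, which hold 55573 genes, and each symbol matched a single entry. The filter on low counts left 15432 genes, among them 8 of the 10. Adam12 and Adamts5 did not pass it, and Adam19 passed only through the groups in which it was high.

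RNA was sequenced from E0771, a mouse mammary carcinoma line, in 7 groups of 3 libraries, all carrying GFP. Parental cells had no further change, empty vector cells carried the vector alone, and ZBTB18 cells overexpressed ZBTB18, a zinc finger repressor of transcription. Vehicle cells and TGF-β1 cells both overexpressed ZBTB18 and also carried TGFBR2, the ligand-binding TGF-β receptor subunit, under doxycycline control. Both received doxycycline, at 1 mg/mL as the label has it, with vehicle or with 2 ng/mL TGF-β1. M11 and M12 are E0771GFP derivatives from spontaneous lung metastases, each a single derived line. None of the labels says whether a line is a clone, how long the treatment lasted, or that replicates came from separate cultures. The p-values therefore measure the spread between these libraries, which may be technical.

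ADAM proteases are membrane-anchored metalloproteases that cut other membrane proteins near the cell surface and so release growth factors, cytokines, receptors and adhesion molecules. ADAM10 and ADAM17 are the broadly expressed sheddases of this family, ADAM10 for Notch receptors and ADAM17 for TNF and several EGF receptor ligands. ADAMTS proteases are secreted instead, carry thrombospondin repeats and cleave matrix proteoglycans such as versican and aggrecan. In mammary tumours members of both families have been studied for their part in growth factor release, matrix turnover and spread.

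Total counts ranged from 24208569 (M11 replicate 3) to 90518872 (vehicle replicate 1). Parental replicate 1 stood apart, with Gm42418, a gene model over ribosomal repeat sequence, taking 14% of its counts and no more than 0.0918% in other libraries. Its scaling factor was 0.839, and its weight in each result is given below where it matters. Zbtb18 stood at 113 ± 9.64 CPM (SD, n = 3) in ZBTB18 cells and 25.1 ± 0.910 CPM in empty vector cells, and Tgfbr2 at 588 ± 32.7 CPM in vehicle cells and 1.74 ± 0.253 CPM in ZBTB18 cells. Of 9 mammary epithelial markers 6 stayed under 1 TPM in every library. Krt8 was at 80.9 to 272 TPM, Cdh1 at no more than 0.07 TPM and Epcam at 0.11 to 3.23 TPM. Of 8 blood cell markers 6 stayed under 1 TPM in every library, with Ptprc at no more than 0.03 TPM.

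Because the libraries hold bulk RNA, fewer cells of a kind and less RNA per cell cannot be told apart in any value below. CPM values (counts scaled to library size, with TMM factors) are used to compare libraries for a gene. TPM values, which divide by transcript length, are used to compare genes. Log2 changes are positive where the group named first was higher, and SE is their standard error.

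Per length, 4 broadly expressed proteases were the most abundant of the 10 in every group. Adam15 reached 45.0 to 110.2 TPM over the 21 libraries, Adam17 25.5 to 77 TPM, Adam9 35.2 to 71.2 TPM and Adam10 25.1 to 59.8 TPM. Adam8 (1.75 to 21.4 TPM), Adamts4 (1.91 to 14.7 TPM) and Adamts1 (2.42 to 10.4 TPM) were lower and more spread out. Adam19 ran from 0 to 10.7 TPM. Adam12 was listed at no more than 0.04 TPM and Adamts5 at 0 in all 21 libraries. In M11 Adam8 averaged 19.7 TPM, not far below Adam10 at 29.9 TPM. On the log2 CPM scale the group means of Adam8 spanned 3.13, those of Adamts1 1.55 and Adamts4 1.49, whereas the 4 broad proteases spanned 0.58 to 0.93. For Adam19 no span is given, because 3 groups had 0 reads.

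**Figure D1:**
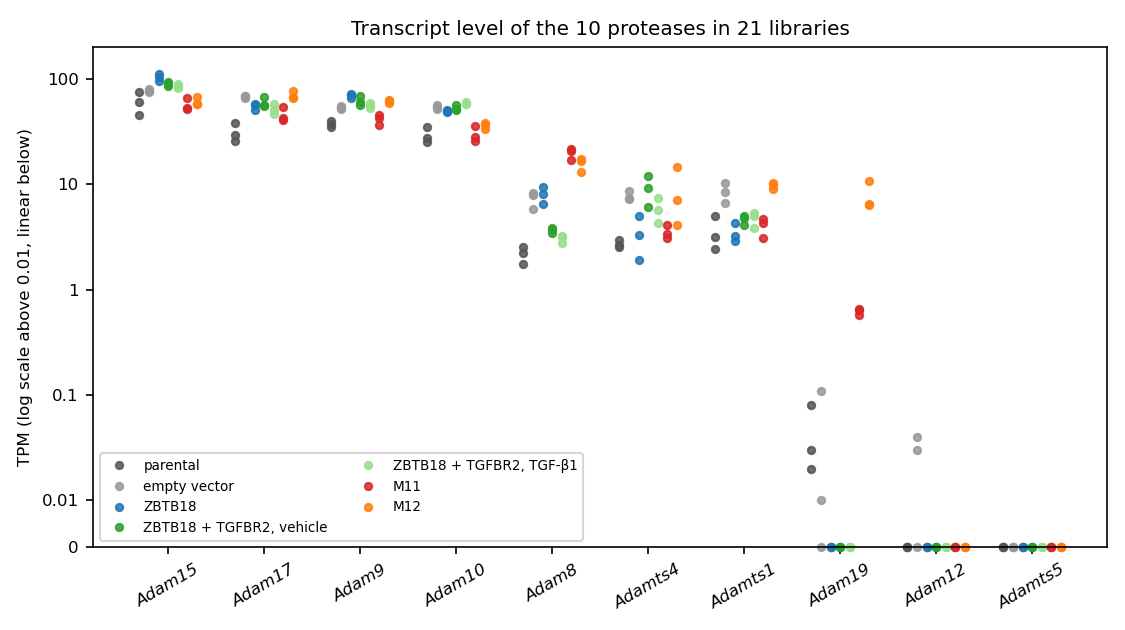
TPM of each of the 10 genes (x axis) in the 21 libraries (points, coloured by group) on a y axis that is logarithmic above 0.01 TPM and linear below. Adam15, Adam17, Adam9 and Adam10 lie between 25.1 and 110.2 TPM in every library, and Adam19 lies at 0.58 to 10.7 TPM in M11 and M12 and at no more than 0.11 TPM in the other groups.

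The sequences shown here are the 250 bases before the annotated start of Adam8 and before the 3 annotated starts of Adam19, the members with the widest ranges, both highest in the metastasis lines. They come from RefSeq on build GRCm38.p6, where 6 of the 10 members had an entry, in 8 windows. Each is printed 5′ to 3′ on the gene's strand, with motif matches in capitals. Motif letters were searched on both strands. They were CATCTG, the core that ZBTB18 binds, TGANTCA, the AP-1 site, GTCTAGAC, the palindromic SMAD site, and GGGCGG, the GC box.
Adam8, chr7:139992563-139992812, minus strand: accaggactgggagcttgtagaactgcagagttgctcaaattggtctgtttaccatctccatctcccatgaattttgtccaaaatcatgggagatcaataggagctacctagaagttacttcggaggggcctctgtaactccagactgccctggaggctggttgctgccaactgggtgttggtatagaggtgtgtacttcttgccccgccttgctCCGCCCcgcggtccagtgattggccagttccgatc
Adam19, first start, chr11:46054252-46054501, plus strand: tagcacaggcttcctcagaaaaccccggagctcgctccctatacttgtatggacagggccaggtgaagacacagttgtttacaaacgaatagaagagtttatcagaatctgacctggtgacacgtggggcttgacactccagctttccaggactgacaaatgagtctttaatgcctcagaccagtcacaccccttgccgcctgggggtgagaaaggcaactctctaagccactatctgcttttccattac
Adam19, second start, chr11:46055734-46055983, plus strand: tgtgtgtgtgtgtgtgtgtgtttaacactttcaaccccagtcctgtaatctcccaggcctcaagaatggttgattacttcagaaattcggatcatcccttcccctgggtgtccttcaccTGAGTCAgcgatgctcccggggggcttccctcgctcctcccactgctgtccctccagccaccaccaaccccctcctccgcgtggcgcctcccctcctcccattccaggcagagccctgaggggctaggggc
Adam19, last start, chr11:46127654-46127903, plus strand: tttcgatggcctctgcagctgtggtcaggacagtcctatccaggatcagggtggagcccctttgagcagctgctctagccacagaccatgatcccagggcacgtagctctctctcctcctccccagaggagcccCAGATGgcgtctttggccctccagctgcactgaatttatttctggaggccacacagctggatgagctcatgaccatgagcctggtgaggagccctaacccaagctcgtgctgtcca
The Adam8 window holds 1 GC box, the first Adam19 window holds none of the 4 motifs, and the second, just before the gene start given below, holds 1 AP-1 match. The last Adam19 window was the only 1 of the 8 with a CATCTG match. GC boxes were found in the windows of Adam8, Adam15 and Adam17 (1 each) and of Adam10 and Adamts1 (3 each). GTCTAGAC was in none of the 8, and shorter SMAD sites were not searched. Over all 32851 mouse promoter windows of this length, 14.4% held CATCTG, 6.75% TGANTCA, 0.167% GTCTAGAC and 32.7% GGGCGG. A match describes the letters only.

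Adam10 and Adam17 are the general sheddases. Adam10 (ENSMUSG00000054693.14, mm10 chr9:70678997-70780229) was lowest in the parental and metastasis lines and higher in empty vector, ZBTB18, vehicle and TGF-β1 cells. Its libraries read 109.7, 105 and 118 CPM in parental cells, 89.9, 97.7 and 110.2 CPM in M11 and 121, 106 and 118 CPM in M12. Those 3 groups overlap. Empty vector cells had 176, 165 and 166 CPM and ZBTB18 cells 149.8, 149.6 and 146 CPM. Vehicle cells had 175, 156 and 157 CPM and TGF-β1 cells 184, 178 and 181 CPM. All 12 of these libraries lay above all 9 of the parental and metastasis lines, and the 3 ZBTB18 libraries were the lowest of the 12. The mitochondrial share of counts split the same way, at 0.525% to 1.09% in the 12 and 1.80% to 3.42% in the 9. The vector and other differences between these sets of libraries cannot be told apart. Adam10 was called in 2 of the 7 comparisons, higher in empty vector than in parental cells and lower in M11 than in M12.

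Adam17 (ENSMUSG00000052593.16, mm10 chr12:21323509-21373632) was called in 5 of 7 comparisons, as often as any member. It stood at 109.7, 109.6 and 124 CPM in parental cells, below all 18 other libraries. M11 had 139, 142 and 163 CPM and M12 had 216, 237 and 201 CPM. M12 was therefore above M11 in every library, and both above parental cells. Empty vector cells, at 206, 199 and 201 CPM, stood near M12, while ZBTB18 cells had 153, 165 and 165 CPM. Vehicle cells (168, 165 and 197 CPM) and TGF-β1 cells (141, 151 and 168 CPM) overlapped with each other. Of its 7154 exonic bases 311 are shared with Iah1 on the opposite strand, and the strand setting of the counting is not given in the sources used here.

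Adam9 and Adam15 are widely expressed members whose sheddase activity is less well defined, and ADAM15 carries an integrin-binding motif in its disintegrin domain. Adam9 (ENSMUSG00000031555.15, mm10 chr8:24949611-25016927) had the narrowest range of the tested members. ZBTB18 cells were highest, at 177, 185 and 178 CPM, above M12 at 171, 174 and 169 CPM. Empty vector cells had 149.7, 142 and 142 CPM, parental cells 146, 119.8 and 118 CPM and M11 113, 127 and 123 CPM. Parental replicate 1 was the high library of its group and lay within the range of the empty vector cells. Vehicle and TGF-β1 cells averaged 164 ± 16.6 and 150.2 ± 11.8 CPM and overlapped.

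Adam15 (ENSMUSG00000028041.17, mm10 chr3:89338542-89349996) was the most abundant member per length in 6 of the 7 groups, while in M12 Adam17 averaged 69.9 TPM, Adam9 61.0 TPM and Adam15 60.9 TPM. Its order of group means placed ZBTB18 cells first, at 160.3, 175 and 182 CPM, and M11 last, at 87.5, 83.1 and 102 CPM. Vehicle cells had 154 ± 5.81 CPM, TGF-β1 cells 143 ± 5.83 CPM and empty vector cells 127, 135 and 137 CPM. Parental cells had 97.4, 110.1 and 125 CPM and M12 had 116, 94.4 and 95.1 CPM. The parental libraries overlapped with both metastasis lines but not with the empty vector cells. Of its 6145 exonic bases 1263 are shared with an antisense gene, 4731419I09Rik, so reads of the pair may not be told apart. Across the 21 libraries Adam15 and Adam10 varied together (Pearson r = 0.81 of log2 CPM). That value is a description over 7 groups whose libraries share their line and handling.

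Adam8 and Adam19 are the members with restricted expression. ADAM8 is best known from leukocytes and has been described in breast tumour cells, and ADAM19 (meltrin beta) is known from heart and nerve development and neuregulin processing. Adam8 (ENSMUSG00000025473.16, mm10 chr7:139978932-139992562) was lowest in parental cells, at 4.02, 4.47 and 5.68 CPM. It stood at 45.4, 36.4 and 42.2 CPM in M11 and 36.6, 35.1 and 26.6 CPM in M12. All 6 metastasis libraries lay above all 15 others, and the metastasis lines overlapped with each other. Empty vector cells (16.4, 12.4 and 17.0 CPM) and ZBTB18 cells (13.7, 15.8 and 18.2 CPM) formed a middle level and overlapped. Vehicle cells had 7.08, 6.67 and 7.08 CPM and TGF-β1 cells 6.12, 5.56 and 5.66 CPM, below both of those groups. Of the 8 blood cell markers Cd68, a lysosomal macrophage marker, was also higher in these lines, at 3.02 to 7.06 TPM in parental cells, 8.43 to 15.9 TPM in M11 and 24.9 to 94.6 TPM in M12. Lyz2 was at 1.52 to 3.09, 0.24 to 1.38 and 0.54 to 3.8 TPM in these groups. The other 6 stayed under 1 TPM in every library, with Ptprc, Adgre1 and Csf1r at or below 0.16 TPM. In vehicle and TGF-β1 cells, where Adam8 averaged 6.94 and 5.78 CPM, Cd68 was at 8.32 to 22.7 and 8.76 to 16.3 TPM. In empty vector cells Cd68 was at 8.6 to 9.57 TPM and in ZBTB18 cells at 3.81 to 8.56 TPM. The part of the Cd68 difference in the Adam8 values was not tested.

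Adam19 (ENSMUSG00000011256.16, mm10 chr11:46055992-46147343) was nearly absent outside the metastasis lines. M12 had 46.3, 27.1 and 27.2 CPM and M11 had 2.94, 2.16 and 2.85 CPM. Parental cells had 7, 6 and 3 reads and empty vector cells 2, 0 and 4 reads per library. No read was counted in any of the 9 libraries of ZBTB18, vehicle and TGF-β1 cells. A count of 0 in a group allows up to 3 reads and does not show absence. In reads per scaled library M12 was 231-fold above parental cells (exact 95% interval 142 to 404) and M11 19.1-fold (11.6 to 33.9). These intervals cover counting error only, not the spread between replicates. Of its 7115 exonic bases 718 are shared with antisense genes.

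Adam12, a protease of muscle and mesenchymal cells, had 17, 7 and 1 reads in the empty vector libraries and 0 in the other 18. Against the limit of 3 reads for a group at 0, empty vector cells were 8.37-fold higher than ZBTB18 cells and 6.18-fold higher than parental cells. These ratios leave out the counting error of the empty vector reads and the spread between replicates. Adam12 did not pass the filter, so it has no test.

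Adamts1, Adamts4 and Adamts5 are the secreted proteoglycan-cleaving members. Adamts5, the main aggrecanase of mouse cartilage, had 6 reads in all. Adamts1 (ENSMUSG00000022893.14, mm10 chr16:85793827-85803113) formed a high and a low level. High were M12 at 37.0, 29.99 and 29.4 CPM and empty vector cells at 26.6, 22.7 and 33.7 CPM, which overlapped. Low were parental cells at 11.8, 11.9 and 17.6 CPM, M11 at 15.5, 11 and 15.3 CPM and ZBTB18 cells at 10.7, 9.40 and 12.9 CPM. Vehicle (15.8, 13.3 and 14.2 CPM) and TGF-β1 cells (16.4, 12.4 and 15.4 CPM) also lay low. The lowest library of the high level, at 22.7 CPM, was above the highest of the low level, at 17.6 CPM.

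Adamts4 (ENSMUSG00000006403.13, mm10 chr1:171250421-171260637) had the widest spread between replicates relative to its level among the members with at least 1 CPM in every group. M12 had 22.7, 45.8 and 12.7 CPM, vehicle cells 17.9, 27.3 and 35.3 CPM and ZBTB18 cells 5.80, 9.51 and 14.1 CPM. Empty vector cells (21.9, 22.4 and 25.3 CPM), M11 (10.7, 11.5 and 12.2 CPM) and parental cells (11.1, 9.99 and 9.77 CPM) were tight by comparison. TGF-β1 cells had 13.1, 17.3 and 22.0 CPM. Cd68 followed the order of the Adamts4 libraries in M12 (30.2, 94.6 and 24.9 TPM) and in vehicle cells (8.32, 19.1 and 22.7 TPM). It also did in TGF-β1 cells (8.76, 14 and 16.3 TPM) and empty vector cells (8.6, 8.66 and 9.57 TPM). Cd68 did not follow that order in ZBTB18 cells (3.81, 8.56 and 6.94 TPM), M11 (10.2, 15.9 and 8.43 TPM) or parental cells (7.06, 3.02 and 5.38 TPM). Lyz2 did not follow that order in M12 (3.8, 0.54 and 1.61 TPM). The summed blood marker level, 26.5 to 95.4 TPM in M12 and 4.73 to 9.04 TPM in parental cells, was mostly Cd68. The part of Cd68 in the Adamts4 values was not tested.

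**Figure D2:**
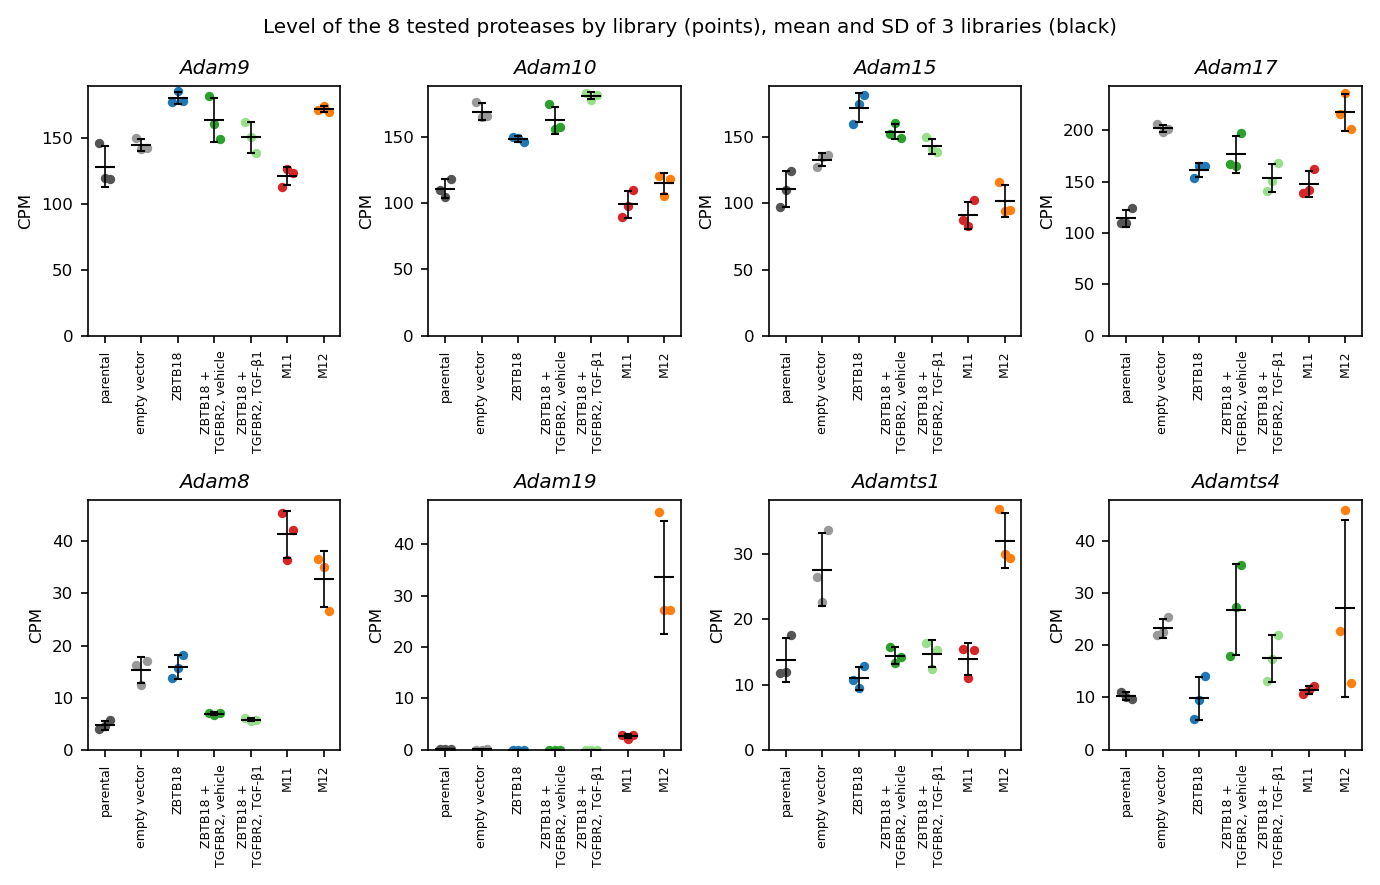
CPM (y axis, from 0, a separate scale per gene) of the 8 tested proteases by group (x axis), with each library as a point and the mean and SD of 3 libraries in black. Adam8 is highest in the 6 M11 and M12 libraries, Adam19 in the 3 M12 libraries, and Adamts4 has its widest spread in M12 (12.7 to 45.8 CPM).

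The first comparison asks how overexpressed ZBTB18 changed these genes relative to the vector alone. Both secreted proteases fell and Adam17 fell slightly, while Adam9 and Adam15 rose. Adamts1 went from 27.6 ± 5.58 to 11 ± 1.78 CPM (SD, n = 3 each), a log2 change of -1.33 (SE 0.18, edgeR adjusted p = 7.48e-06). Adamts4 went from 23.2 ± 1.84 to 9.79 ± 4.15 CPM, a log2 change of -1.24 (SE 0.38, edgeR adjusted p = 0.0227). Adam8, at 15.9 ± 2.27 and 15.3 ± 2.5 CPM, and Adam10 (log2 change -0.19, edgeR adjusted p = 0.0788) did not pass the threshold of 0.05.

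Without Adam19, 2 of 7 tested members were higher and 3 lower in ZBTB18 cells, where 14% of all tested genes were higher and 14.5% lower. The log2 change was 0.32 (SE 0.09) for Adam9, 0.37 (SE 0.10) for Adam15 and -0.33 (SE 0.09) for Adam17, with edgeR adjusted p-values of 0.00835, 0.00566 and 0.00861. In each of these 5 genes, and in Adam10, which was not called, the libraries of the groups did not overlap. Here and in the comparisons below, the share of all tested genes without overlap was not counted. A lack of overlap is therefore a description only. The Adamts4 call was lost without empty vector replicate 3 (adjusted p = 0.0623), ZBTB18 replicate 1 (0.0937) or ZBTB18 replicate 2 (0.0701), and the Adam17 call on log2(TPM + 1) (limma adjusted p = 0.142). Adam17 lies on chromosome 12, where 137 of 542 tested genes were lower and 43 higher, with a median log2 change of -0.14. Chromosome 8, with Adam9, had 130 of 810 higher and 74 lower, and chromosome 3, with Adam15, 109 of 762 and 75. Chromosome 1, with Adamts4, had 213 of 913 higher and 78 lower, and chromosome 16, with Adamts1, 59 of 451 and 56. The part of these chromosome-wide differences was not tested. Adam19 had 6 reads in empty vector cells and 0 in ZBTB18 cells. Against a limit of 3 reads for the group at 0, empty vector cells were 2.01-fold higher. That ratio leaves out the counting error of the 6 reads. The median log2 change of the 7 members without Adam19 was -0.19, and 0.01 over all tested genes.

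Around the proteases, more genes of the substrate lists fell than rose in ZBTB18 cells. Of 23 tested membrane substrates 13 were lower and 2, Notch1 and Aplp2, higher. L1cam, a neural adhesion molecule, went from 94.1 ± 4.22 to 16.5 ± 2.67 CPM (log2 change -2.51), the chemokine Cx3cl1 from 17.7 ± 2.47 to 3.05 ± 0.358 CPM (-2.54) and the macrophage growth factor Csf1 from 269.7 ± 11 to 121 ± 6.71 CPM (-1.16). Versican, the classic ADAMTS substrate, is encoded by Vcan. Its level went from 173 ± 34.2 to 33.2 ± 1.29 CPM (log2 change -2.38, SE 0.18, edgeR adjusted p = 6.63e-09). Of the 13 tested further ADAMTS and ADAMTS-like genes 7 were lower and 1, Adamtsl4, higher. Notch1, Aplp2, Adamtsl4 and the next 3 genes lie under a 2-fold change and were named after their values were seen. Of the 5 tested EGF receptor ligands Areg (log2 change 0.72) and Btc (0.52) were higher and Hbegf (-0.58) was lower.

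The second comparison asks what TGF-β1 added in cells whose receptor was induced. No member passed the threshold, while 1.26% of all tested genes were higher and 0.654% lower. With edgeR 1 member, Adam17, had an unadjusted p under 0.05, and DESeq2 also called 0. Adam17 went from 177 ± 18.0 to 153 ± 13.8 CPM (log2 change -0.20, SE 0.09, edgeR adjusted p = 0.315). Adam10 stood at 162 ± 10.5 and 181 ± 2.73 CPM (log2 change 0.16, SE 0.08, edgeR adjusted p = 0.418).

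Same-numbered vehicle and TGF-β1 libraries deviated together, and within the 3 pairs most members kept a sign. The log2 ratio of TGF-β1 to vehicle for Adamts4 was -0.45, -0.66 and -0.68. Adam8, Adam9, Adam15 and Adam17 were also lower in 3 of 3 pairs and Adam10 was higher in 3 of 3. How many of all tested genes kept a sign in 3 of 3 pairs was not counted, here or for M11 and M12 below. With the replicate number as a block over all 21 libraries 0 members passed. In the 6 libraries alone with that block 5 passed: Adamts4 (log2 change -0.59, edgeR adjusted p = 8.10e-07), Adam17 (-0.20, 0.000521), Adam10 (0.16, 0.00479), Adam9 (-0.12, 0.0225) and Adam8 (-0.26, 0.0371). That fit called 3623 of 14131 genes, against 295 of 15432 in the fit over all libraries, and it was added after the data were seen. Of the related genes 2 passed in the fit over all libraries, the proteoglycan gene Bgn (3.67 ± 0.699 to 7.95 ± 1.45 CPM, log2 change 1.11, edgeR adjusted p = 0.00640) and the proprotein convertase Furin (log2 change 0.39). Furin was named after its value was seen.

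The next pair of comparisons sets each metastasis line against the parental line. They share the 3 parental libraries. Some fibroblast and endothelial markers moved with these comparisons, not all in 1 direction. The summed level of 6 fibroblast markers was 34.6 to 41.7 TPM in parental cells, 249 to 358 TPM in M11 and 71.0 to 130.4 TPM in M12. Col3a1 was at 12.7 to 14.2, 218 to 314 and 50.3 to 109.1 TPM in these groups, and Dcn and Lum at or below 0.07 TPM. Col1a1 went the other way, at 0.81 to 1.41, 0.2 to 0.25 and 0.08 to 0.36 TPM. Pdgfra was at 14.12 to 18.75, 22.54 to 30.85 and 16.32 to 30.9 TPM. Pdgfrb was at 6.89 to 7.42, 8.19 to 13.04 and 2.95 to 6.55 TPM, so it was lower in M12. Of 5 endothelial markers 4 stayed under 1 TPM, and Pecam1 was at 1.56 to 1.90 TPM in M11 and at most 0.15 TPM in parental cells. Their part in the results was not tested. In both lines Adam8 and Adam17 rose, and in M12 Adam9, Adamts1 and Adamts4 rose as well. Adam8 went from 4.72 ± 0.859 CPM in parental cells to 41.3 ± 4.52 CPM in M11 (8.76-fold, log2 change 3.13, SE 0.16, edgeR adjusted p = 2.62e-12). In M12 it stood at 32.8 ± 5.38 CPM (6.94-fold, log2 change 2.79, SE 0.16, edgeR adjusted p = 8.43e-12). Adam19 stood at 0.140 ± 0.0566 CPM in parental cells, 2.65 ± 0.426 CPM in M11 and 33.5 ± 11 CPM in M12.

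Adam19 passed the low-count filter only through the groups in which it was high, so its level is described and its test is not used. Of the other 7 tested members 2 were higher and 1 lower in M11 than in parental cells, where 20.8% of tested genes were higher and 20% lower. The log2 change of Adam17 was 0.37 (SE 0.09, edgeR adjusted p = 0.00227). For Adam15 it was -0.29 (SE 0.10, edgeR adjusted p = 0.0231), with overlapping libraries. The Adam15 call was lost in 6 of 14 alternatives, among them those without parental replicate 3 (log2 change -0.19, adjusted p = 0.121), M11 replicate 1 (0.0767) or M11 replicate 2 (0.110). Without parental replicate 1, and with Adam19 counted, 4 members were called in M11 and 6 in M12, as with it.

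Without Adam19, 5 of 7 tested members were higher in M12 than in parental cells and 0 lower, where 24.9% of tested genes were higher and 25.2% lower. Adam9 had 171 ± 2.34 against 128 ± 15.4 CPM (log2 change 0.42, SE 0.09, edgeR adjusted p = 0.000370). Adam17 had 218 ± 18.0 against 114 ± 8.33 CPM, a 1.90-fold level (log2 change 0.93, SE 0.09, edgeR adjusted p = 3.19e-08). Adamts1 had 32.1 ± 4.21 against 13.8 ± 3.33 CPM (log2 change 1.22, SE 0.18, edgeR adjusted p = 7.61e-06). For these 3 genes and for Adam8 each M12 library exceeded each parental library, and the call held in all 14 alternatives. Adamts4 had 27.1 ± 17.0 against 10.3 ± 0.730 CPM (log2 change 1.40, SE 0.39, edgeR adjusted p = 0.00671), and without M12 replicate 2 the log2 change was 0.78 (adjusted p = 0.0669).

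Some of the chromosomes that carry members shifted in these lines. On chromosome 8, which carries Adam9, 412 of 810 tested genes were lower and 89 higher in M12 than in parental cells, with a median log2 change of -0.32. On chromosome 1, which carries Adamts4, 472 of 913 were higher and 100 lower in M12 (median 0.39), and 447 higher and 67 lower in M11 (median 0.40). Chromosome 3, which carries Adam15, had 278 of 762 genes higher and 113 lower in M12 (median 0.17). Chromosomes 7, 11 and 16, which carry Adam8, Adam19 and Adamts1, had medians of -0.02, 0.01 and -0.01 in M12 and 0.01, -0.00 and -0.01 in M11. The part of these chromosome-wide differences in the members' values was not tested. Without Adam19, the median log2 change of the 7 tested members was 0.93 in M12 and 0.02 in M11, against -0.01 and -0.00 over all genes.

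Among related genes the secreted protease Adamts8 rose in both lines. Adamts8 went from 2.69 ± 0.919 CPM in parental cells to 49.9 ± 8.06 CPM in M11 (log2 change 4.23) and 34.4 ± 1.81 CPM in M12 (3.69). In M11 5 of 13 tested further ADAMTS and ADAMTS-like genes were higher (Adamts3, Adamts7, Adamts8, Adamtsl3 and Adamtsl4) and 3 lower (Adamts6, Adamtsl5 and Papln). In M12 Adamts8, Adamts12 and Adamtsl4 were higher and Adamts6, Adamts20 and Adamtsl5 lower. Those of them under a 2-fold change or 5 CPM were named after their values were seen. Of 23 tested membrane substrates 12 were higher and 1, Kitl, lower in M11, and 9 were higher and 3, Il6ra, Tnfrsf1a and Kitl, lower in M12. Kitl and Tnfrsf1a lie under a 2-fold change and were likewise named afterwards. The receptor gene Met went from 111 ± 12.2 CPM to 233 ± 21.9 CPM in M11 and 321 ± 37.3 CPM in M12. The Notch ligand gene Dll1 stood at 1.58 ± 0.250 CPM in parental cells and 12.3 ± 2.80 CPM in M12 (log2 change 2.97), and the interleukin 6 receptor gene Il6ra went from 59.1 ± 7.43 to 22.6 ± 7.87 CPM in M12 (-1.38). EGF receptor ligands split in M12: Hbegf went from 22.8 ± 4.49 to 64.5 ± 19.0 CPM (log2 change 1.5) and Btc from 12.3 ± 3.84 to 2.00 ± 0.382 CPM (-2.63).

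The metastasis lines also differed from each other, and every called member was higher in M12. Without Adam19, 0 of 7 tested members were higher and 5 lower in M11 than in M12, where 17.7% of tested genes were higher and 17.8% lower in M11. Adam19 stood at 2.65 ± 0.426 CPM in M11 and 33.5 ± 11 CPM in M12. The log2 change of M11 against M12 was -1.21 (SE 0.18) for Adamts1, -0.56 (SE 0.09) for Adam17 and -0.51 (SE 0.09) for Adam9, with edgeR adjusted p-values of 2.08e-05, 5.52e-05 and 0.000110. In these 3 genes the libraries did not overlap, M11 was lower in 3 of 3 numbered pairs, and the call held in all 15 alternatives. Adam8, higher in M11 by a log2 change of 0.34 (SE 0.14), did not pass (edgeR adjusted p = 0.0697). Chromosome 12, with Adam17, had 44 of 542 tested genes higher and 128 lower in M11 than in M12. Chromosome 8, with Adam9, had 361 of 810 higher and 68 lower, and chromosome 16, with Adamts1, 70 of 451 and 70. The part of these chromosome-wide differences was not tested.

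Adam10 (log2 change -0.21, edgeR adjusted p = 0.0411) and Adamts4 (-1.25, 0.0190) passed narrowly. The Adam10 libraries overlapped and its call was lost in 9 of 15 alternatives. Adamts4 was lost in 4, among them those without M11 replicate 1 (adjusted p = 0.0611) or M11 replicate 2 (0.0559) and without M12 replicate 2 (log2 change -0.63, adjusted p = 0.173). In the 6 libraries alone with the replicate block, Adam10 (edgeR adjusted p = 0.0933) and Adamts4 (0.233) did not pass and Adam8 did (0.0238). Around the members the list of inhibitors and clearance receptors went the other way, with 4 of 5 tested genes higher in M11 and 0 lower. These were Timp1, Timp2, Lrp1 and Sdc4, with log2 changes of 0.56, 0.69, 0.71 and 0.47, named after their values were seen. Adamts7, Adamtsl3 and Vcan were also higher in M11 (log2 changes 1.79, 1.29 and 1.03), and Hbegf and Dll1 lower (-1.46 and -1.43).

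**Figure D3:**
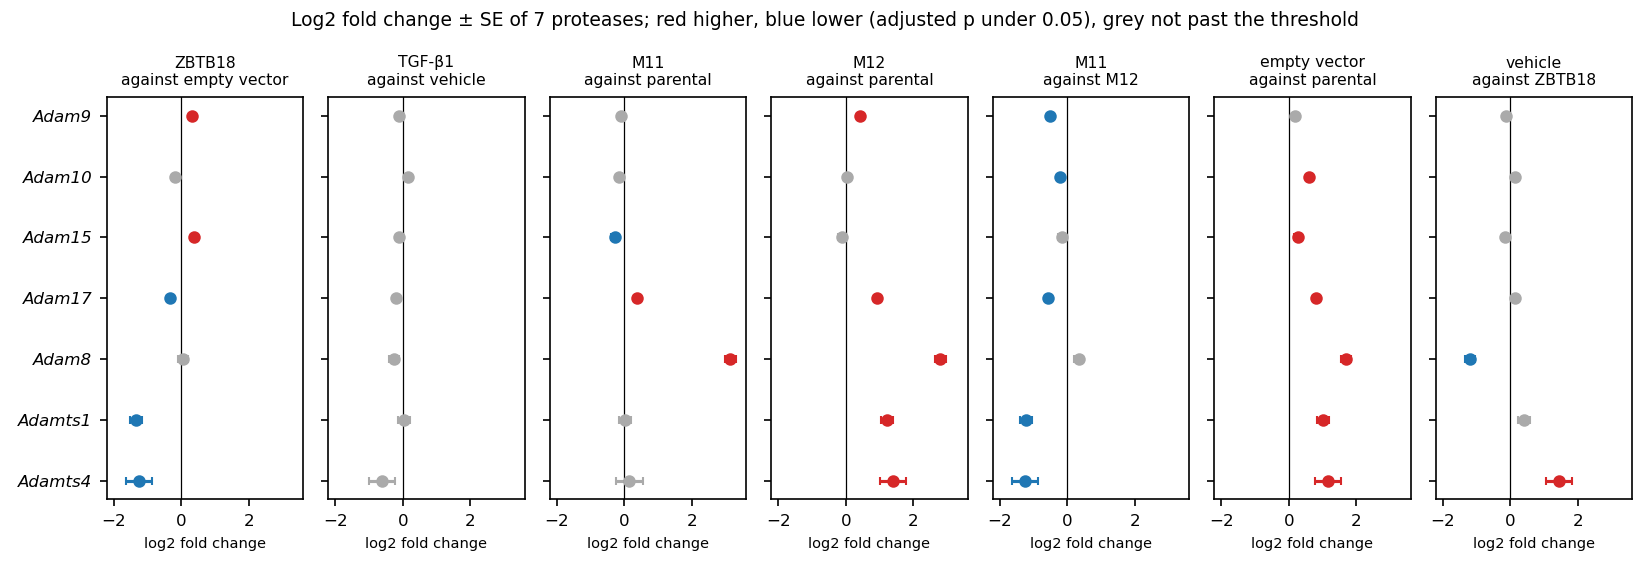
Log2 fold change (x axis) with its SE (bars, often smaller than the point) for 7 tested proteases (y axis) in the 7 comparisons (panels), red for higher, blue for lower and grey for an edgeR adjusted p of 0.05 or more. Adam19 is left out because several groups have 0 reads. Adam8 has the largest values of the 7 genes, 3.13 in M11 and 2.79 in M12, and the TGF-β1 panel is grey throughout.

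The contrast of the controls, empty vector against parental cells, asks how far the vector line itself had moved from its source. Most proteases were higher with the empty vector, so a comparison with the parental line and a comparison with the vector line start from different levels. Adam8 stood at 15.3 ± 2.5 against 4.72 ± 0.859 CPM (log2 change 1.70, SE 0.15, edgeR adjusted p = 3.70e-08) and Adam17 at 202 ± 3.54 against 114 ± 8.33 CPM (0.82, SE 0.09, edgeR adjusted p = 3.73e-07). Without Adam19, 6 of 7 tested members were higher and 0 lower, where 28.9% of tested genes were higher and 29% lower.

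The log2 change was 0.61 for Adam10, 1.01 for Adamts1, 1.17 for Adamts4 and 0.27 for Adam15, with edgeR adjusted p-values of 2.41e-06, 7.56e-05, 0.0164 and 0.0235. In these 6 genes no empty vector library overlapped with a parental library. The mitochondrial share of counts differed too, at 0.861% to 1.07% in empty vector and 2.41% to 2.56% in parental libraries. The part of that difference was not tested. The Adam15 call was lost in 6 of 14 alternatives, among them the one without parental replicate 1 (log2 change 0.20, adjusted p = 0.102), and the Adamts4 call without parental replicate 2 (0.0530). Adam9 did not pass (log2 change 0.18, edgeR adjusted p = 0.0888), and without parental replicate 1 it did (0.30, adjusted p = 0.00774). The Adam15 call was also lost without parental replicate 2 (0.0717), empty vector replicate 2 (0.0542) or empty vector replicate 3 (0.0639). Of 23 tested membrane substrates 13 were higher and 1, Kitl, named afterwards, lower, with Cx3cl1 at 17.7 ± 2.47 against 2.34 ± 0.752 CPM. Vcan stood at 173 ± 34.2 against 39.6 ± 3.59 CPM and Adamts7, another secreted relative, at 43.8 ± 13.4 against 3.57 ± 0.921 CPM. In ZBTB18 cells, for which the vector line was the control, Adamts1, Adamts4 and Vcan stood at 11, 9.79 and 33.2 CPM, beside 13.8, 10.3 and 39.6 CPM in parental cells. Other genes did not stand so close. Adam8, Adam9, Adam10, Adam15 and Adam17 stood at 15.9, 180, 148, 173 and 161 CPM in ZBTB18 cells. In parental cells they stood at 4.72, 128, 110.9, 110.8 and 114 CPM. L1cam stood at 14.5 to 19.6 CPM in ZBTB18 cells and 65.3 to 73.2 CPM in parental cells. ZBTB18 cells were not tested against parental cells.

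The last comparison sets vehicle cells against ZBTB18 cells without the receptor, groups that differ in the TGFBR2 construct and in doxycycline, which cannot be told apart. They differed in Zbtb18 too, at 82.9 ± 6.49 CPM in vehicle and 113 ± 9.64 CPM in ZBTB18 cells (log2 change -0.45, edgeR adjusted p = 0.00162), and its part was not tested. Adam8 was lower and Adamts4 higher in vehicle cells. Adam8 went from 15.9 ± 2.27 to 6.94 ± 0.237 CPM (log2 change -1.19, SE 0.15, edgeR adjusted p = 1.69e-06). Adamts4 went from 9.79 ± 4.15 to 26.8 ± 8.72 CPM (log2 change 1.45, SE 0.38, edgeR adjusted p = 0.00710). Without Adam19, 1 of 7 tested members was higher and 1 lower, where 19.5% of tested genes were higher and 19.3% lower. Both calls held in all 14 alternatives, and in both genes the libraries did not overlap. The libraries of Adam10 and Adamts1, neither of them called, did not overlap either. Adamts1 (log2 change 0.40, edgeR adjusted p = 0.0820) did not pass.

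Of 13 tested further ADAMTS and ADAMTS-like genes 7 were lower and 2, Papln and Thsd4, the latter named afterwards, higher. Adamts7 went from 34.3 ± 4.23 to 2.81 ± 1.93 CPM (log2 change -3.66), Adamtsl3 from 38.8 ± 5.57 to 5.47 ± 0.503 CPM (-2.82) and Adamts8 from 47.6 ± 2.33 to 9.10 ± 1.87 CPM (-2.39). Papln, which encodes papilin, an ADAMTS-like matrix protein, went from 0.485 ± 0.153 to 7.85 ± 1.58 CPM (4.01). Vcan reached its lowest level, 1.77 ± 0.541 CPM. Rhbdf2, the iRhom partner that carries ADAM17 to the cell surface, stood at 74.9 ± 14.7 against 26.8 ± 3.20 CPM (log2 change 1.48, edgeR adjusted p = 1.26e-05), while Adam17 itself did not pass (log2 change 0.13, edgeR adjusted p = 0.255). Among substrates Icam1 (log2 change 3.28, SE 0.79) and Fas (3.28, SE 0.77) were higher and Met (-1.46) and L1cam (-1.07) lower. The vehicle libraries were widely spread for Icam1 (13.9, 42.6 and 83.9 CPM) and Fas (3.43, 7.47 and 13.0 CPM).

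**Figure D4:**
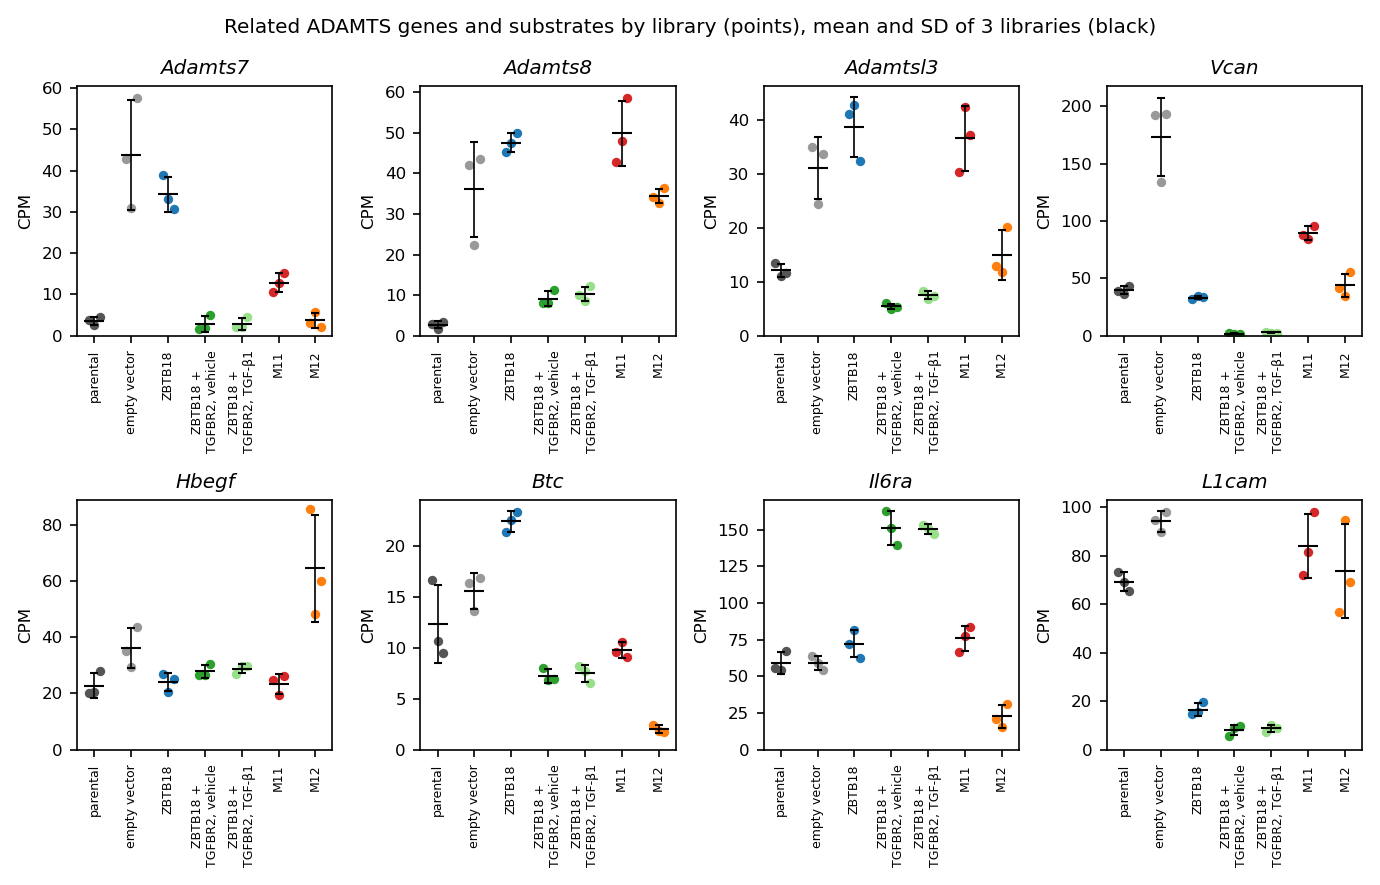
CPM (y axis, from 0, a separate scale per gene) of 8 related genes by group (x axis), 3 secreted relatives, the ADAMTS substrate Vcan and 4 membrane substrates, with each library as a point and mean and SD of 3 libraries in black. Vcan and L1cam are lower in ZBTB18 than in empty vector cells, Hbegf is highest and Btc and Il6ra lowest in M12.

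For the members with the widest ranges, the genes with the most similar pattern over the 21 libraries were sought among 9403 others, by Pearson r of log2 CPM. They were Pcnx4 (r = 0.96), Mmd (0.95) and Nol4l (0.94) for Adam19. For Adam8 they were Trim66 (0.99), Il18rap (0.97) and Sh3gl3 (0.95), and for Adamts1 Lmtk2 (0.92), Samd4 (0.90) and Pcgf3 (0.90). Between members Adam8 and Adam19 had an r of 0.72, Adam17 and Adamts4 of 0.71 and Adam17 and Adamts1 of 0.70. Adam19 had 0 reads in the 9 ZBTB18, vehicle and TGF-β1 libraries and in empty vector replicate 2. Its values therefore depend on the prior count. Adam19 ran opposite to Adam15 (r = -0.78) and Adam10 (-0.72). These values describe 7 groups more than 21 independent points.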

How the data were processed

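Expected counts and TPM per gene were deposited by the authors as RSEM tables for 21 libraries (polyA RNA, stranded kit). Trim Galore, STAR 2.7.1a, GATK 4.1.2.0, RSEM and build mm10 are named in the submitters' processing notes. The annotation release and the strand setting of the counting are not given in the sources used here. The FPKM table was not used here. The 92 spike-in entries were left out, and expected counts, of which 1.28% were not whole (0% for the members), were rounded.

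Genes passing edgeR's low-count filter (15432) were fitted over all 21 libraries with TMM scaling and edgeR's quasi-likelihood F-test (edgeR 4.0.16, R 4.3.3, residual degrees of freedom 14). The p-values are two-sided and Benjamini-Hochberg adjusted over all tested genes, with a threshold of 0.05. Alternatives were DESeq2 1.42.0, its size factors, limma 3.58.1 on log2(TPM + 1) and log2(TPM + 0.1), no filter, at least 1 CPM in 3 libraries as the filter, fits of only the 6 libraries compared, a replicate block, and each library left out. On simulated data only ZBTB18 against empty vector cells was tested, with the main edgeR fit and with limma on log2(CPM + 1). The alternatives listed above were not themselves tested on simulated data. All members are described. Related genes are named at an adjusted p under 0.05, a 2-fold change and a mean of 5 CPM in the higher group, at most 4 per list and comparison, with exceptions marked. Members and lists were chosen with earlier results of these data known.

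Replicate numbers come from the labels. Deviations from group means of same-numbered libraries correlated at 0.30, 0.14 and 0.35 for TGF-β1 and vehicle cells and at 0.17, 0.29 and 0.17 for M11 and M12. Only for these comparisons are log2 ratios by pair and a fit of the 6 libraries alone with the replicate block given. The main edgeR fit had no pairing in any comparison, so its p-values are unpaired. No 2 libraries held identical values.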

Additional observations from a re-analysis of the deposited data

Results flagged for a closer look

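Without Adam19, the change from parental cells differed between the M11 and M12 lines for 5 of 7 tested members. The test was the M11 against M12 contrast of the same edgeR fit. The log2 change in M11 minus that in M12 was -3.66 for Adam19, -1.21 for Adamts1, -1.25 for Adamts4, -0.56 for Adam17, -0.51 for Adam9 and -0.21 for Adam10. Because the parental libraries cancel in this difference, it repeats the direct comparison of the lines and adds no evidence to it. For Adamts4 and Adam10 the call was lost in 4 and 9 of 15 alternatives. Adam19 passed the low-count filter only through the groups in which it was high. Its difference, -3.66, is therefore described and its test is not used.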

How the results depend on the processing

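The counts of called members given here include Adam19, whose test is not used above. The number called stayed within 1.5 times the main count in every alternative except for TGF-β1 against vehicle cells. There 0 were called, against 1 with no filter on low counts and 5 in the 6 libraries alone with the replicate block, a fit added after seeing the data. With the replicate block over all 21 libraries 0 were called there and 6 in M11 against M12, as in the fit without it. With 1 library left out, the count of called members was 4 to 6 for ZBTB18, 0 for TGF-β1, 3 to 5 for M11, 5 to 6 for M12, 4 to 6 for M11 against M12, 4 to 6 for empty vector and 2 to 3 for vehicle cells.

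Signs reversed only where no call had been made. On log2(TPM + 1) and log2(TPM + 0.1) the log2 change against parental cells was 0.14 and 0.14 for Adam9 in M11, 0.0303 and 0.0312 for Adam10 in M11 and 0.0479 and 0.0491 for Adam15 in M12. Those scales moved the median of all genes by 0.14 and 0.20 in M11. With 1 library left out, the ranges that crossed 0 were -0.14 to 0.0175 for Adam9 in M11, -0.0841 to 0.23 for Adamts1 in M11, -0.0101 to 0.11 for Adam10 in M12, -0.0721 to 0.15 for Adam8 in ZBTB18 cells and -0.0577 to 0.13 for Adamts1 with TGF-β1. The cause was not tested.

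Over all genes, the TGF-β1 comparison called 295 genes, against 597 with DESeq2, 633 without a filter, 1349 in the 6 libraries alone, 3623 with the block added, 112 and 81 on the TPM scales and 71 to 183 with 1 library left out. In the 6 libraries alone 4015 genes were called in M11, 5113 in M12 and 3497 between them. Depth limits Adam12, Adamts5 and, outside the metastasis lines, Adam19.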
